A study of Saccharomyces cerevisiae with 4 samples.

Results

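Histone chaperones, transcription elongation factors and histone-modifying enzymes are the proteins that take nucleosomes apart, rebuild them and mark them as RNA polymerase II passes. The 31 genes described here were taken by a fixed list of systematic IDs out of 6688 gene identifiers in the deposited tables. They encode FACT, Spt6 with Spn1, Spt4 with Spt5, the PAF complex, TFIIS, Elf1, the chromatin assembly factor CAF-1, the chaperones Asf1, Nap1, Vps75, Spt2 and Chz1, the methyltransferases Set1, Set2 and Dot1, the H2B ubiquitination pair Bre1 and Rad6, and deacetylase subunits. All 31 were found in the tables, all passed the filter on low counts, and RefSeq gives the same symbols for all 31.

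The comparison was between budding yeast (Saccharomyces cerevisiae) labelled nhp6ab, the usual name for a strain without NHP6A and NHP6B, and cells labelled WT. Both were in exponential growth in YPD, a rich glucose medium, and polyadenylated RNA was sequenced from 2 libraries of each strain. Neither the labels nor the tables give the strain background, the mating type or the deleted bases. They do not say either whether the 2 libraries of a strain came from separate cultures, so the p-values reflect the scatter of these libraries alone, which may be technical. The libraries held 29115870 and 28721743 expected counts in nhp6ab, against 27581468 and 22622592 in WT. NHP6A, which checks the labels, had 11.2 and 12.0 CPM in nhp6ab libraries, against 122.5 and 129.6 CPM in WT libraries, and NHP6B had 33.4 and 32.6 CPM in nhp6ab, against 80.0 and 86.0 CPM in WT. Both genes kept some counts in nhp6ab. The source of these remaining counts was not tested, and which part of each gene was deleted was not looked up. CPM stands for counts scaled to a common library total, here after TMM scaling, which removes a common shift between libraries.

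FACT, the dimer of Spt16 and Pob3, loosens and restores nucleosomes, and in yeast the small DNA-bending protein Nhp6 helps it engage them. Spt6 and Spn1 travel with elongating RNA polymerase II, Spt4 and Spt5 clamp onto the polymerase, and the PAF complex recruits the enzymes that ubiquitinate histone H2B and thereby allow methylation of histone H3 by Set1 and Dot1. Set2 marks gene bodies, where the Rpd3 deacetylase complex containing Eaf3 and Rco1 removes acetyl groups. CAF-1, Asf1 and Vps75 deliver new histones, during DNA replication and outside it.

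Of the 31 genes, 8 were higher and 7 were lower in nhp6ab by edgeR's quasi-likelihood test, at a Benjamini-Hochberg adjusted p below 0.05 over all genes, and 16 did not pass. That is 48.4% of the members, and 49.5% of the 6422 genes tested passed the same threshold, 24.5% higher and 25.0% lower. The share called among the members is thus close to that of the whole transcriptome. With TMM scaling the changes were small. Only 1 member, RAD6, was both called and changed at least 1.5-fold, against 13.2% of all genes tested. At least 2-fold, 0 were called, against 4.44%. The median log2 fold change of the members was -0.043, with a range of -0.61 to 0.35, beside a median of 0.007 over all genes. In 12 members both nhp6ab libraries lay above both WT libraries, and in 12 both lay below, a non-overlap in either direction that 77.5% of all genes also showed (38.9% higher and 38.7% lower). The counts moved when 1 of 3 libraries was left out: 3 members were higher and 5 lower without WT replicate 1 (901 and 1063 of all genes), 2 were higher and 6 lower without WT replicate 2 (918 and 1104 of all genes), and 5 were higher and 6 lower without nhp6ab replicate 1 (1329 and 1501 of all genes). DESeq2 gave 5 higher and 7 lower (1292 and 1432 of all genes).

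The sign of small changes depended on the scaling. The members held 0.369 and 0.376% of all counts in the nhp6ab libraries, against 0.316 and 0.327% in the WT libraries, so without TMM factors they were mostly higher. Scaled by library size alone, all genes had a median of 0.22, and 16 members were higher and 3 lower (47.1 and 12.5% of all genes). On log2(TPM + 1), tested with limma, the median of all genes was 0.283, and 20 members were higher and 1 was lower (55.5 and 9.61%). "Higher" and "lower" in what follows are relative to TMM scaling. Of the members called lower with TMM, RAD6, ELF1 and SET2 kept the call with library size alone and RAD6 kept it on the TPM scale. DST1, MSI1, VPS75 and DOT1 lost it under both. The plot of the members under 3 scalings shows this shift.

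**Figure D1:**
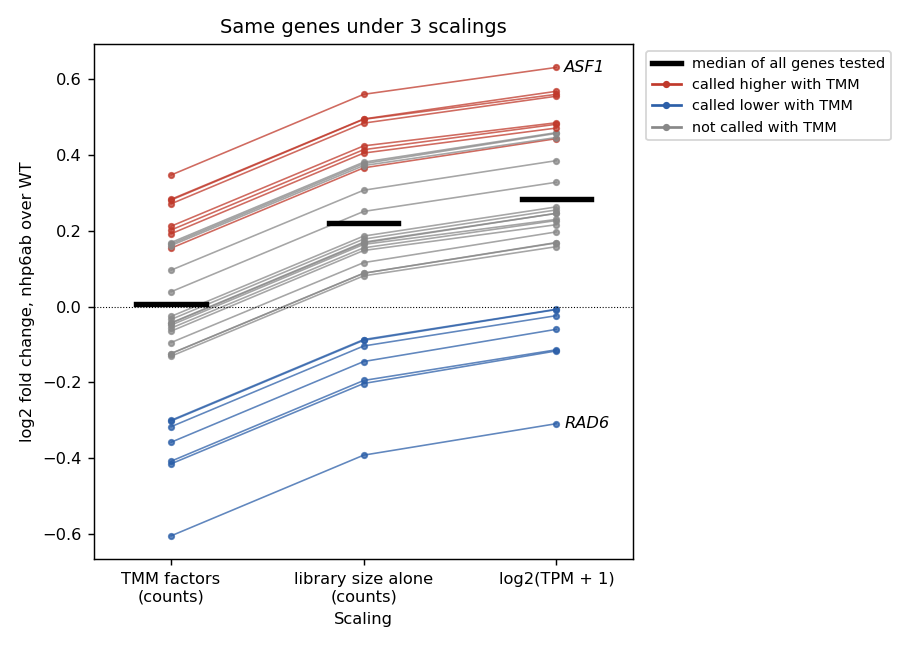
The log2 fold change (nhp6ab over WT) of each of the 31 genes under TMM factors, library size alone and log2(TPM + 1), with a black bar for the median of all genes tested (0.007, 0.22 and 0.283). The lines run nearly parallel, RAD6 stays lowest and ASF1 stays highest.

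Promoter sequence was compared for 200 bases upstream of each gene, from 300 to 101 bases before the start codon, in the R64 assembly. The motifs searched on both strands were MCB (ACGCGT), the site of the G1/S activator MBF, SCB (CACGAAA), the site of SBF, a TATA box (TATAAAA or TATAAAT or TATATAA or TATATAT, which may overlap one another), the Reb1 site (TTACCCG) and the Gcn4 site (TGACTC). MCB stood in the windows of 4 of 31 members, RLF2, ASF1, DOT1 and RCO1, which is 12.9%, against 2.91% of 6020 protein-coding genes. SCB stood in 2 members (SET1 and EAF3; 6.45%, against 3.22% of all). A TATA box stood in 13 members (41.9%, against 41.1%), a Reb1 site in 5 (16.1%, against 7.66%) and a Gcn4 site in 1, SPT6 (3.23%, against 5.83%). The windows of the 3 called members with a motif and the smallest adjusted p are shown. Among these, ASF1 and DOT1 hold the same site beside transcripts that moved in opposite directions. VPS75 holds a TATA box before a transcript that was lower. Capitals mark the motif: MCB in ASF1 at 216 to 211 and 180 to 175 bases before the start codon, a TATA box in VPS75 at 238 to 232 and, as a pair that overlaps, at 155 to 149 and 154 to 148, and MCB in DOT1 at 173 to 168. The windows lie at chrX:195987-196186 (ASF1), chrXIV:185160-185359 (VPS75) and chrIV:1342193-1342392 (DOT1), all on the plus strand.
ASF1: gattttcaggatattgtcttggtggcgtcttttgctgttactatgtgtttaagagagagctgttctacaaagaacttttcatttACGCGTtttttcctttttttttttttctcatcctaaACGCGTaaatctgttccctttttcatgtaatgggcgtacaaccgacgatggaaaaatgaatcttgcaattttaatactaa
VPS75: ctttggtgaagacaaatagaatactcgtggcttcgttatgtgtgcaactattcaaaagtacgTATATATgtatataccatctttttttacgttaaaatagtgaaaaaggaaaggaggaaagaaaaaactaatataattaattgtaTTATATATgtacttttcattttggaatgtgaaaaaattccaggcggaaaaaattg
DOT1: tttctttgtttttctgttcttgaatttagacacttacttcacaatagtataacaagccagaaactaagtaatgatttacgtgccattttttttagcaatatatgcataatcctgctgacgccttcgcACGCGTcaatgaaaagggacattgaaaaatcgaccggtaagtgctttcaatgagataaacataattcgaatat
The MCB pair of ASF1 stood before a transcript that was higher in nhp6ab, and the MCB of DOT1 before one that was lower. RLF2 and RCO1, which also hold MCB, did not pass the test. The VPS75 window runs into the neighbouring gene CRS1, and 10 of 31 members have another annotated gene in this window.

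None of the genes for FACT itself passed the test. SPT16 (YGL207W; chromosome VII, 98969 to 102076), the large FACT subunit, had 256 and 251 CPM in nhp6ab, against 259 and 264 CPM in WT, a log2 fold change of -0.044 ± 0.055 (SE) with an adjusted p of 0.528 in edgeR. POB3 (YML069W; chromosome XIII, 135500 to 137158), the partner of Spt16, had 165 and 154 CPM in nhp6ab and 160 and 165 CPM in WT (-0.026 ± 0.060, adjusted p = 0.743). The SPT16 libraries of nhp6ab were just below those of WT, and those of POB3 overlapped. Without TMM factors the values were 0.168 for SPT16 and 0.186 for POB3, both past the threshold (adjusted p = 0.0356 and 0.0262 in edgeR) and both below the median of 0.22 of all genes.

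Among the other factors that ride on the polymerase, the small partners SPN1 and SPT4 rose and the large ones did not pass the test. SPT6 (YGR116W), a histone chaperone of elongation, had 198 and 195 CPM in nhp6ab, against 212 and 217 CPM in WT (-0.13 ± 0.054, adjusted p = 0.0804 in edgeR). SPN1 (YPR133C; chromosome XVI, 795978 to 797210, minus strand), which binds Spt6, had 154 and 153 CPM in nhp6ab, against 135 and 140 CPM in WT. The SPN1 libraries of the strains were apart, and the rise of 0.15 ± 0.053 on the log2 scale was just past the threshold (adjusted p = 0.0462 in edgeR). It did not pass with DESeq2 (0.0889), with a replicate term (0.0759), or without any one of the 4 libraries (0.0557 to 0.194).

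SPT4 (YGR063C; chromosome VII, 617516 to 617824, minus strand), a zinc-finger protein of 102 residues that pairs with Spt5, had 27.5 and 25.3 CPM in nhp6ab, against 21.8 and 21.5 CPM in WT. It rose by 0.28 ± 0.073 on the log2 scale (adjusted p = 0.0166 in edgeR), and both nhp6ab libraries were above both WT libraries. The call was lost in DESeq2 (0.0573), without nhp6ab replicate 1 (0.102), and without WT replicate 1 (0.0804) or WT replicate 2 (0.0985). SPT5 (YML010W), its large partner, which is conserved from bacteria to humans, had 192 and 185 CPM in nhp6ab, against 197 and 191 CPM in WT (-0.043 ± 0.055, adjusted p = 0.544). Its groups overlapped.

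All 5 genes of the PAF complex had higher values in both nhp6ab libraries than in both WT libraries, as did 38.9% of all genes, and 2 of them, CDC73 and CTR9, passed the test. CDC73 (YLR418C; chromosome XII, 956914 to 958095, minus strand), the yeast counterpart of human parafibromin, had 93.8 and 96.9 CPM in nhp6ab, against 78.3 and 79.7 CPM in WT. It rose by 0.27 ± 0.053 on the log2 scale (adjusted p = 0.00547 in edgeR), with a call that was lost without WT replicate 1 (0.0569). CTR9 (YOL145C; chromosome XV, 49555 to 52788, minus strand), the scaffold subunit, had 139 and 140 CPM in nhp6ab, against 119 and 124 CPM in WT. This rise of 0.20 ± 0.053 (adjusted p = 0.0174) was not called without WT replicate 1 (0.116) or WT replicate 2 (0.058).

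The other 3 PAF genes had fold changes of the same sign below the threshold. LEO1, whose product pairs with Paf1, had 189 and 187 CPM in nhp6ab and 160 and 175 CPM in WT (0.17 ± 0.063, adjusted p = 0.061 in edgeR). PAF1, the name-giving subunit, had 124 and 109 CPM in nhp6ab and 108 and 99.6 CPM in WT (0.16 ± 0.078, adjusted p = 0.127). RTF1, which stimulates H2B ubiquitination, had 177 and 173 CPM in nhp6ab and 157 and 170 CPM in WT (0.096 ± 0.060, adjusted p = 0.225). For PAF1 the lower nhp6ab library nearly met the higher WT library, and its value was 0.056 without nhp6ab replicate 1 and 0.25 without nhp6ab replicate 2, where it was called (adjusted p = 0.0138 in edgeR). LEO1 was called with a filter of 10 CPM (0.0474), and all 3 were called when scaled by library size alone (0.00213 to 0.00446). For RTF1 and LEO1 the WT libraries were farther from each other than the nhp6ab libraries were. Per length, LEO1 was the most abundant PAF transcript (125 TPM in nhp6ab and 91.2 TPM in WT on average) and CTR9 the least (39.6 TPM in nhp6ab and 28.1 TPM in WT).

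DST1 and ELF1, in contrast, were lower in nhp6ab. ELF1 (YKL160W; chromosome XI, 153269 to 153706), a conserved elongation factor of 145 residues, had 98.1 and 101 CPM in nhp6ab, against 135 and 130 CPM in WT. It fell by 0.41 ± 0.054 on the log2 scale (adjusted p = 0.000992 in edgeR) to 0.754 times the WT level. DST1 (YGL043W; chromosome VII, 417483 to 418412) encodes TFIIS, which helps a stalled polymerase cut its RNA and go on, and had 63.9 and 67.6 CPM in nhp6ab, against 82.3 and 79.6 CPM in WT. DST1 fell by 0.30 ± 0.056 (adjusted p = 0.00442), a call that was lost without WT replicate 1 (0.0521). Neither gene's libraries overlapped between strains. On the TPM scale ELF1 averaged 225 TPM in nhp6ab and 244 TPM in WT, and DST1 66.7 TPM in nhp6ab and 67.0 TPM in WT.

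The 3 genes of CAF-1, which places histones H3 and H4 on newly copied DNA, went different ways. CAC2 (YML102W; chromosome XIII, 68294 to 69700), the middle subunit, had 65.4 and 63.9 CPM in nhp6ab, against 54.6 and 51.8 CPM in WT, and rose by 0.28 ± 0.054 on the log2 scale (adjusted p = 0.00517 in edgeR). Without WT replicate 2 it was not called (0.0566). MSI1 (YBR195C; chromosome II, 610614 to 611882, minus strand), the small subunit, had 20.9 and 23.1 CPM in nhp6ab, against 27.7 and 27.0 CPM in WT, and fell by 0.32 ± 0.076 (adjusted p = 0.0121). The call for MSI1 was lost without nhp6ab replicate 1 (0.0598), WT replicate 1 (0.0884) or WT replicate 2 (0.0688). RLF2, the large subunit, had 42.6 and 43.6 CPM in nhp6ab and 41.7 and 48.1 CPM in WT (-0.057 ± 0.079, adjusted p = 0.577), with groups that overlapped. Per length, CAC2 was the most abundant of the 3, at 42.7 TPM in nhp6ab and 28.7 TPM in WT, and MSI1 the least, at 16.2 TPM in nhp6ab and 16.4 TPM in WT.

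ASF1 (YJL115W; chromosome X, 196287 to 197126), the chaperone that hands histones H3 and H4 to CAF-1 and other acceptors, had the largest increase of the 31. It had 65.8 and 64.2 CPM in nhp6ab, against 52.3 and 49.9 CPM in WT. The rise of 0.35 ± 0.054 on the log2 scale (1.27-fold, adjusted p = 0.00205 in edgeR) kept its call under all 12 alternatives, with values of 0.314 to 0.641. Both nhp6ab libraries were above both WT libraries.

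The NAP-family chaperones did not move together. VPS75 (YNL246W; chromosome XIV, 185460 to 186349, 2 exons), which works with the acetyltransferase Rtt109, had 94.0 and 94.8 CPM in nhp6ab, against 119 and 113 CPM in WT. It fell by 0.30 ± 0.054 on the log2 scale (adjusted p = 0.00385 in edgeR), and the strains did not overlap. Its last 4 bases are shared with CWC25 on the opposite strand, which had 36.6 and 35.8 CPM in nhp6ab and 38.3 and 36.0 CPM in WT (adjusted p = 0.63). NAP1, a chaperone of histones H2A and H2B, had 317.6 and 317.9 CPM in nhp6ab and 271 and 296 CPM in WT (0.16 ± 0.065, adjusted p = 0.0722). Its WT libraries were farther from each other than the lower nhp6ab library was from the higher WT library.

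The last 2 chaperones did not pass the test. SPT2, which binds histones H3 and H4 at transcribed genes, had 82.4 and 84.1 CPM in nhp6ab and 84.6 and 97.1 CPM in WT (-0.12 ± 0.074, adjusted p = 0.201 in edgeR). CHZ1, a chaperone of the variant H2A.Z with H2B, had 122 and 113 CPM in nhp6ab and 120 and 131 CPM in WT (-0.095 ± 0.066, adjusted p = 0.266). CHZ1 overlapped between strains, and SPT2 libraries of nhp6ab were just below those of WT.

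Of the 3 histone methyltransferases, SET2 and DOT1 fell and SET1 did not pass the test. SET2 (YJL168C; chromosome X, 102227 to 104428, minus strand), which methylates histone H3 over gene bodies, had 46.4 and 42.5 CPM in nhp6ab, against 58.2 and 60.3 CPM in WT. The decrease was 0.41 ± 0.064 on the log2 scale (adjusted p = 0.002 in edgeR; log2 fold change -0.415). DOT1 (YDR440W; chromosome IV, 1342493 to 1344241), which methylates the globular core of histone H3, had 23.8 and 25.4 CPM in nhp6ab, against 31.6 and 31.5 CPM in WT, and fell by 0.36 ± 0.065 (adjusted p = 0.00398). Both genes were lower in both nhp6ab libraries than in either WT library. SET1, the catalytic subunit of COMPASS, which methylates histone H3 near gene starts, had 61.2 and 65.3 CPM in nhp6ab and 65.8 and 65.1 CPM in WT (-0.049 ± 0.055, adjusted p = 0.49). DOT1 was the lowest of the 31 transcripts per length, at 13.0 TPM in nhp6ab and 13.6 TPM in WT.

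The pair that ubiquitinates histone H2B split, with the conjugating enzyme lower and the ligase not past the threshold. RAD6 (YGL058W; chromosome VII, 393986 to 394504), the conjugating enzyme, which also serves DNA damage tolerance and protein turnover, had 38.4 and 41.0 CPM in nhp6ab, against 60.2 and 60.6 CPM in WT. This was the largest change among the 31 with TMM scaling: RAD6 fell to 0.657 times its WT level (log2 fold change -0.61 ± 0.059, adjusted p = 0.000282 in edgeR). RAD6 changed less than ASF1 with library size alone (-0.392, against 0.560) and on log2(TPM + 1) (-0.309, against 0.631). The call was kept under all 12 alternatives, with values of -0.654 to -0.309. BRE1, the ligase that brings Rad6 to H2B, had 126 and 122 CPM in nhp6ab and 120 and 134 CPM in WT (-0.034 ± 0.067, adjusted p = 0.696), and its groups overlapped. Per length, RAD6 averaged 74.6 ± 4.9 TPM in nhp6ab and 92.6 ± 3.0 TPM in WT (SD, n = 2 each) and BRE1 54.5 ± 0.19 TPM in nhp6ab and 45.6 ± 4.7 TPM in WT. By level, RAD6 was in place 16 of the 31 in nhp6ab and in place 5 in WT. These places are close calls. The nhp6ab averages of CDC73 (75.4 TPM), SPT16 (74.8 TPM) and ASF1 (73.3 TPM) lay between the RAD6 libraries of nhp6ab (71.1 and 78.1 TPM). The WT average of LEO1 (91.2 TPM) lay between those of WT (90.4 and 94.7 TPM).

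Of the 5 deacetylase genes, SIN3 and HDA1 rose. SIN3 (YOL004W; chromosome XV, 316938 to 321548), the scaffold of the Rpd3 complexes, had 137 and 134 CPM in nhp6ab, against 122 and 112 CPM in WT. It rose by 0.21 ± 0.062 on the log2 scale (adjusted p = 0.0261 in edgeR), and the call was lost without nhp6ab replicate 1 (0.0595) or WT replicate 2 (0.154). HDA1 (YNL021W; chromosome XIV, 593227 to 595347), a deacetylase in a complex of its own, had 85.2 and 84.5 CPM in nhp6ab, against 75.5 and 72.9 CPM in WT, and rose by 0.19 ± 0.052 (adjusted p = 0.0203). For HDA1 the call was lost with DESeq2 (0.0559) and without WT replicate 1 (0.0731) or WT replicate 2 (0.117). The libraries of the strains did not overlap for either gene.

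RPD3, the catalytic subunit, had 133 and 130 CPM in nhp6ab and 126 and 130 CPM in WT (0.039 ± 0.053, adjusted p = 0.569 in edgeR). EAF3, whose chromodomain reads the Set2 mark, had 106 and 104 CPM in nhp6ab and 116 and 113 CPM in WT (-0.12 ± 0.053, adjusted p = 0.0915). RCO1, its partner in the complex that acts in gene bodies, had 44.1 and 44.3 CPM in nhp6ab and 45.2 and 47.3 CPM in WT (-0.065 ± 0.058, adjusted p = 0.388). None of the 3 passed the test, and only RPD3 overlapped between strains. The open reading frame YMR075C-A shares 349 bases with RCO1 on the opposite strand, at 1.29 and 0.587 CPM in nhp6ab and 1.09 and 1.23 CPM in WT.

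**Figure D2:**
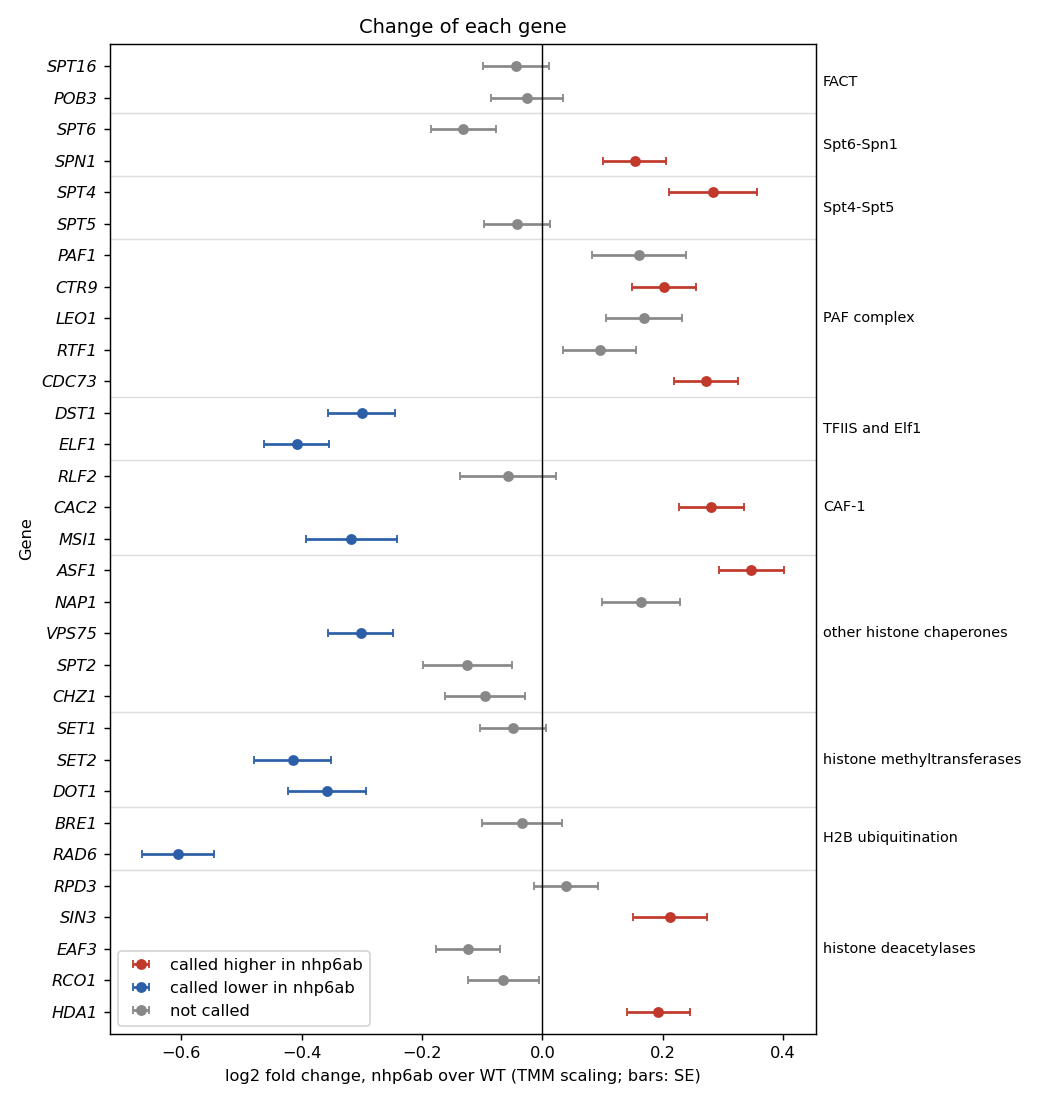
The log2 fold change (nhp6ab over WT, TMM scaling) of each of the 31 genes with its SE, grouped by role, with called genes in color. The 8 called higher lie between 0.15 and 0.35 and the 7 called lower between -0.30 and -0.61, and both FACT genes lie at zero within their SE.

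Per length, the 31 transcripts spanned a wide range that was similar in the strains. CHZ1, NAP1 and ELF1 were the 3 most abundant in both, at 250, 236 and 225 TPM on average in nhp6ab and 218, 172 and 244 TPM in WT. DOT1, MSI1 and SET1 were the 3 least abundant, at 13.0, 16.2 and 17.9 TPM in nhp6ab and 13.6, 16.4 and 15.1 TPM in WT. Among the top 3, the ELF1 libraries (218 and 232 TPM in nhp6ab) lay next to those of NAP1 (233 and 240 TPM in nhp6ab), and the gap between the nearest libraries of both genes was smaller than that between the ELF1 libraries of nhp6ab. Within FACT, POB3 exceeded SPT16 in every library, with 91.1 and 87.0 TPM against 74.4 and 75.1 TPM in nhp6ab, and 71.4 and 76.6 TPM against 61.2 and 64.7 TPM in WT.

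**Figure D3:**
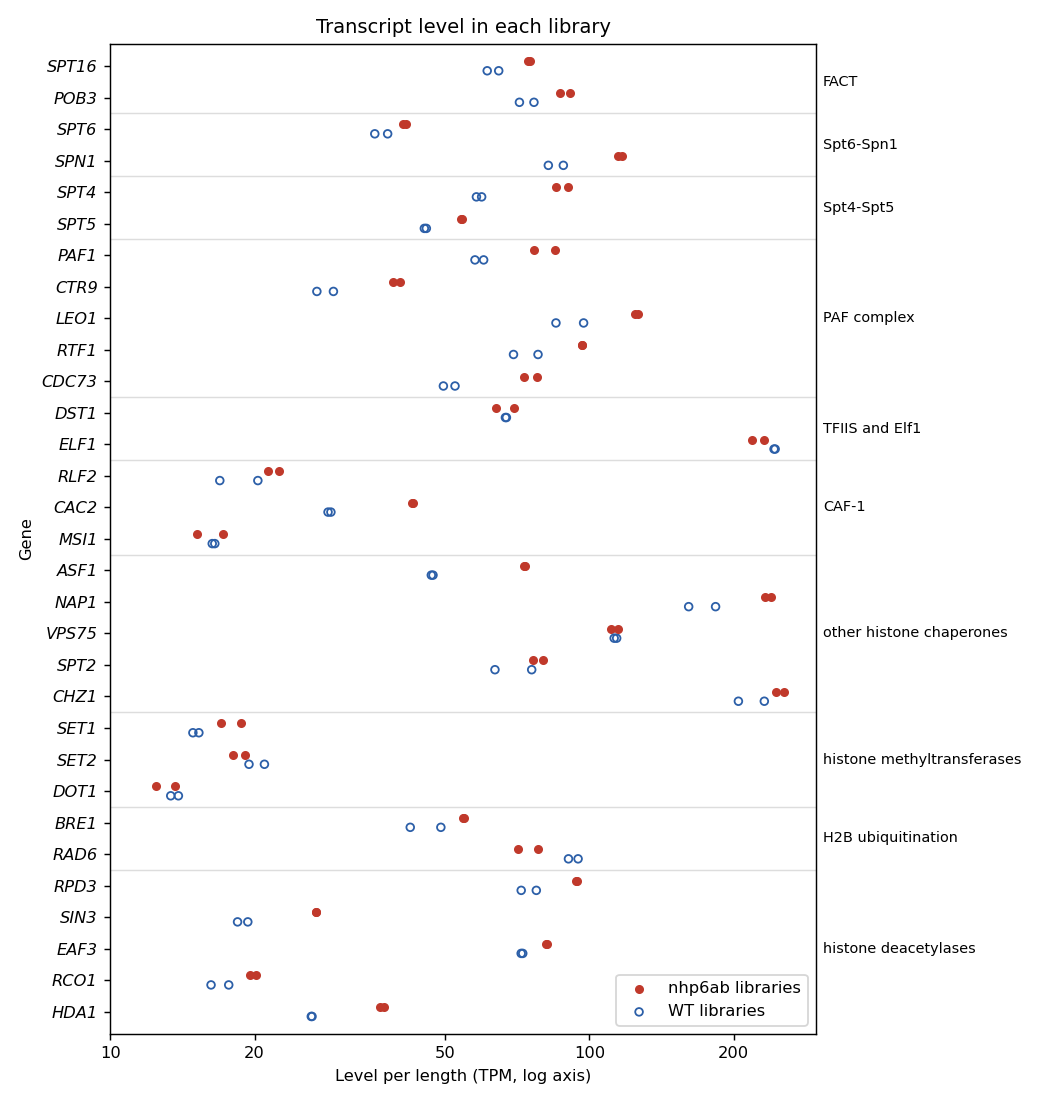
The level per length (TPM, log axis) of each of the 31 genes in each library, filled for nhp6ab and open for WT, grouped by role. CHZ1, NAP1 and ELF1 sit at the right and DOT1, MSI1 and SET1 at the left, and RAD6 is lower in both nhp6ab libraries (71.1 and 78.1 TPM) than in both WT libraries (90.4 and 94.7 TPM).

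The members' genes are spread over 12 chromosomes. None has a near-identical copy elsewhere among coding sequences, 1 (VPS75) has an intron, and 2 (VPS75 and RCO1) overlap another annotated gene. Identifiers that RefSeq does not annotate have no coordinates here, so overlaps with them were not looked up. Reads of opposite strands may have been mixed, since no source states how the counting treated strand.

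The other genes of the same processes gave a background for the members. Of 74 measured genes for further subunits and enzymes, 27 rose and 11 fell, and 36 did not pass. That is 51.4% called (49.5% of all genes), with a median log2 fold change of 0.091. By direction, 24.5% of all genes were called higher and 25.0% lower. Scaled by library size alone, the 74 genes were 47 higher and 2 lower (47.1 and 12.5% of all genes). Without WT replicate 1 or WT replicate 2, fewer of the 74 genes were called in either direction, as was the case over all genes.

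The genes for histone demethylases, which take methyl groups off histone H3, were higher throughout. All 4 passed the test, with a median of 0.60 on the log2 scale. Of all genes tested, 24.5% were called higher, and the median of all genes was 0.007. GIS1, which is also a stress and nutrient regulator, had 109 and 107 CPM in nhp6ab, against 62.6 and 56.4 CPM in WT (0.86 ± 0.065, adjusted p = 0.000101 in edgeR). JHD2, the demethylase that reverses the Set1 mark, had 28.6 and 28.2 CPM in nhp6ab, against 17.7 and 16.8 CPM in WT (0.72 ± 0.070, adjusted p = 0.000282). RPH1, which acts on the Set2 mark, had 99.7 and 107 CPM in nhp6ab, against 70.9 and 76.8 CPM in WT (0.49 ± 0.066, adjusted p = 0.00115). JHD1 had a log2 fold change of 0.30 ± 0.057 (adjusted p = 0.00466) and is named because it completes the list. All 4 were called higher under all 12 alternatives.

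Partners of the members went both ways. In COMPASS, 3 of 7 further subunits rose and 2 fell, among them SWD3 (0.41 ± 0.060) and SWD1 (0.29 ± 0.063), which rose, and BRE2 (-0.46 ± 0.084), which fell. Of 6 genes of H2B ubiquitin and its removal, 3 rose and 1 fell: LGE1, the partner of Bre1, rose (0.26 ± 0.064), as did SGF73 (0.23 ± 0.051), whereas SGF11 fell (-0.44 ± 0.098). Of 10 further Rpd3 complex genes 4 rose and 0 fell, with CTI6 (0.58 ± 0.071), UME1 (0.47 ± 0.054) and UME6 (0.35 ± 0.060) among them. Of all genes, 24.5% were called higher and 25.0% lower. At an unadjusted p under 0.05 the Rpd3 list gave 5 higher and 0 lower, in edgeR and in DESeq2, beside 3625 of 6422 genes in either direction in edgeR.

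Further deacetylases and their partners gave 4 higher and 1 lower of 13 (38.5% called, against 49.5% of all genes). SIR2, the silencing deacetylase, had 18.1 and 19.1 CPM in nhp6ab, against 34.2 and 30.7 CPM in WT, and fell by 0.81 ± 0.079 on the log2 scale (adjusted p = 0.00028 in edgeR). SNT1 (0.37 ± 0.051) and HST1 (0.18 ± 0.051) rose. Among 16 genes of acetyltransferases and their partners 5 rose and 4 fell (56.2% called, against 49.5%). Of these, ELP3 (-0.51 ± 0.059) and HAT2 (-0.36 ± 0.054) were lower and YNG2 (0.26 ± 0.057) was higher. RTT109, the enzyme that Vps75 and Asf1 serve, had a log2 fold change of -0.19 ± 0.074 and did not pass (adjusted p = 0.0675), and is named because those chaperones are members.

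Of 9 further histone chaperones 2 rose and 3 fell (55.6% called, against 49.5% of all genes), with FPR3 (-0.31 ± 0.060), HIF1 (-0.27 ± 0.056) and HIR1 (-0.29 ± 0.076) lower. This split depended on scaling and test. With library size alone 4 were higher and 0 lower (47.1 and 12.5% of all genes), and with DESeq2 0 were higher and 4 lower (1292 and 1432 of all genes). In the THO complex, which couples elongation to export, THO2 (0.25 ± 0.055) and MFT1 (0.18 ± 0.058) rose and the other 2 genes did not pass. Of the 5 kinase and cyclin genes of elongation 0 were called in edgeR or in DESeq2, against 49.5% of all genes in edgeR. An unadjusted p under 0.05 was found for 1 of them in edgeR and 0 in DESeq2, beside 3625 of 6422 genes in edgeR. Their log2 fold changes ran from -0.20 to 0.13, and 4 were called higher when scaled by library size alone.

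Of the genes named in these lists, SWD3, CTI6, UME1, UME6, SNT1, SIR2 and ELP3 kept their calls under all 12 alternatives. Scaled by library size alone, the decreases of BRE2 (adjusted p = 0.0608 in edgeR), SGF11 (0.119), HAT2 (0.0587), FPR3 (0.191), HIF1 (0.503) and HIR1 (0.487) were not called. Without WT replicate 1 the calls of SWD1 (0.0753), SGF73 (0.0617), LGE1 (0.0716), HST1 (0.111), YNG2 (0.0519), HIF1 (0.0658), HIR1 (0.134), THO2 (0.0772) and MFT1 (0.226) were lost. Without WT replicate 2 those of SGF73 (0.0639), SGF11 (0.0776), LGE1 (0.0958), HST1 (0.101), THO2 (0.0589) and MFT1 (0.0851) were lost. Without nhp6ab replicate 1 those of LGE1 (0.0542), HST1 (0.0513) and HIR1 (0.086) were lost, and without nhp6ab replicate 2 that of MFT1 (0.144). DESeq2 did not call HST1 (0.0562) or MFT1 (0.116).

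Because ASF1 and CAF-1 act during DNA replication, genes of the G1/S transition were listed beside them. Most serve DNA synthesis, and the cohesin genes SMC3 and MCD1 and the cyclin genes CLB5 and CLB6 were included. Of the 16 genes listed, 1 rose and 5 fell (37.5% called, against 49.5% of all genes), with a median log2 fold change of -0.11. CDC9 (-0.42 ± 0.064), SMC3 (-0.38 ± 0.066) and RNR1 (-0.20 ± 0.054) were lower. Beside them, ASF1 (0.35) and CAC2 (0.28) were higher, MSI1 (-0.32) was lower and RLF2 (-0.057) did not pass. The direction of this list depended on the scaling. With library size alone 6 of its genes were called higher and 1 lower (47.1 and 12.5% of all genes). On log2(TPM + 1) with limma 7 were higher and 0 lower (55.5 and 9.61%). Scaled by library size alone, SMC3 was not called (adjusted p = 0.115 in edgeR) and RNR1 turned to 0.011. CDC9 was not called on log2(TPM + 1) with limma (0.196). RNR1 was not called without WT replicate 1 (0.117) or WT replicate 2 (0.0588) either. The part of cell-cycle distribution in the members' changes was not tested. The plot of the lists sets these groups beside the members.

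**Figure D4:**
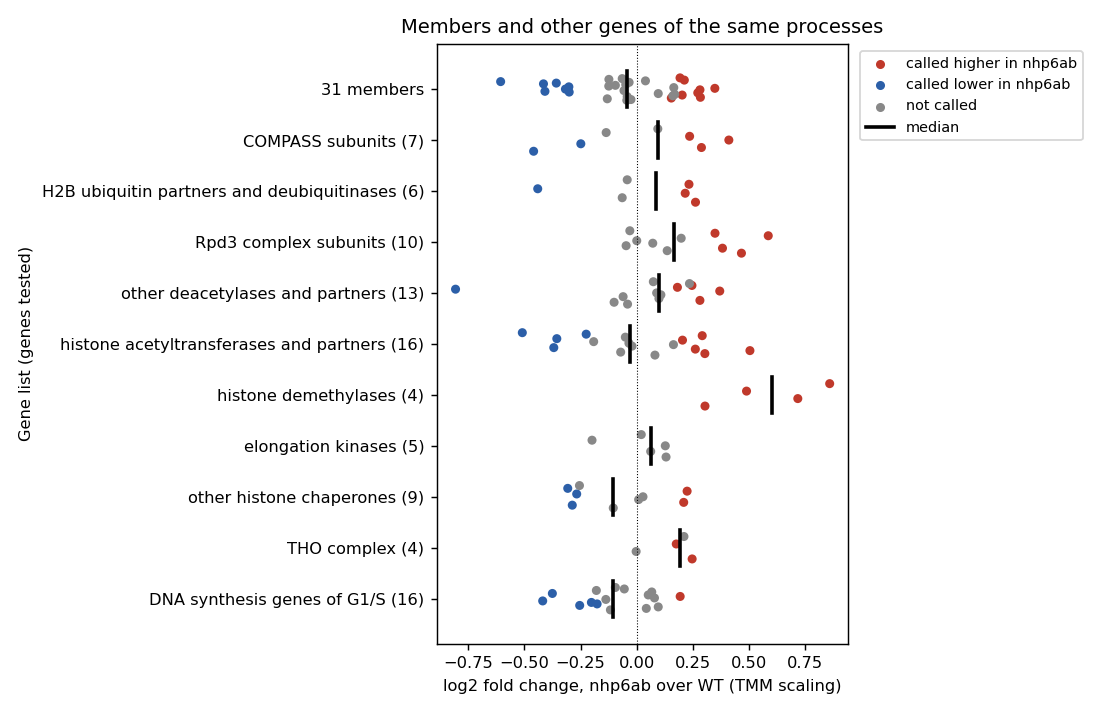
The log2 fold change (nhp6ab over WT, TMM scaling) of the 31 members and of the genes in 10 further lists, with a bar for each list's median and the number of genes tested in brackets. The 4 histone demethylase genes lie at 0.30 to 0.86, and the other lists straddle zero.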

How the data were processed

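Polyadenylated RNA of 2 nhp6ab and 2 WT libraries was measured, grouped by their titles. Per the sheet names, the authors deposited RSEM expected counts per gene and, in a second sheet, TPM values from RSEM, which scale for length and library total. The submitters' processing notes name sacCer3, which is the R64 assembly from which symbols, coordinates and sequence (RefSeq) were taken. No aligner, RSEM version, annotation or strand setting is stated. Each table as used here has 4 empty lines, which were left out, and 6005 of 6688 identifiers matched RefSeq.

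Expected counts were rounded, filtered by filterByExpr (minimum count 10, minimum total 15), scaled by TMM and tested by strain alone in edgeR 4.0.16 under R 4.3.3 (quasi-likelihood, 2 residual degrees of freedom). Adjustment ran over all 6422 genes tested. The fit was also run on simulated data in which few genes changed, each by at least 1.5-fold. That run cannot show how the test performs on smaller changes, such as those of all called members but RAD6. Nor does it cover data in which many genes change. Each SE was taken from the fold change and its F statistic. Gene copies were searched with BLAST+ 2.17.0 (at least 95% identity over at least 50% of the coding sequence). Alternatives used limma 3.58.1 and DESeq2 1.42.0, and figures Python 3.11.15 with matplotlib 3.10.9. The members, the lists and the rule for named genes (every member, NHP6A and NHP6B, up to 3 called genes a list, genes that overlap a member) were chosen with earlier results of these data known. Protein sequences were not used here.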

Additional observations from a re-analysis of the deposited data

How the results depend on the processing

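RLE size factors, no low-count filter and a filter of 10 CPM in 2 libraries each left at most 1 of the 31 members on another side of the threshold. With DESeq2 the members higher numbered 5 and those lower 7. Replicate numbers are shared between strains, and the deviations of same-numbered libraries had a correlation of -0.0698 over genes. Each strain has only 2 libraries, so this value cannot show whether same-numbered libraries were handled together. With a replicate block 7 members were higher and 7 lower. The calls of ASF1 and RAD6 held under all 12 alternatives.

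Scaling moved the counts most. With library size alone 16 members were higher and 3 lower, 47 and 2 of the other pathway genes, and 3023 and 800 of all genes. On log2(TPM + 1) the numbers were 20 and 1, 55 and 2, and 3566 and 617, and on log2(TPM + 0.1) 20 and 1, 55 and 2, and 3558 and 614. The median of all genes moved from 0.007 to 0.22, 0.283 and 0.299, and this common shift turned the sign of genes near zero. With library size alone the log2 fold changes that turned were SPT16 0.168, POB3 0.186, SPT6 0.081, SPT5 0.17, RLF2 0.155, SPT2 0.088, CHZ1 0.116, SET1 0.164, BRE1 0.178, EAF3 0.088, RCO1 0.148, RNR1 0.011 and CWC25 0.174. On log2(TPM + 1) they were SPT16 0.246, POB3 0.263, SPT6 0.158, SPT5 0.246, RLF2 0.227, SPT2 0.169, CHZ1 0.197, SET1 0.23, BRE1 0.255, EAF3 0.168, RCO1 0.216, HIF1 0.026, HIR1 0.008, RNR1 0.089 and CWC25 0.253. On log2(TPM + 0.1) they were SPT16 0.249, POB3 0.266, SPT6 0.162, SPT5 0.25, RLF2 0.237, SPT2 0.171, CHZ1 0.198, SET1 0.242, BRE1 0.26, EAF3 0.17, RCO1 0.227, HIF1 0.026, HIR1 0.009, RNR1 0.092 and CWC25 0.257.

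Leaving out each library gave 2 to 8 members higher and 5 to 7 lower, 11 to 25 and 7 to 11 of the other pathway genes, and 901 to 1462 and 1063 to 1557 of all genes. The lowest counts came without a WT library: 3 members were higher without WT replicate 1 and 2 without WT replicate 2, and 5 without nhp6ab replicate 1. These fits keep 1 library in a strain, which is assumed to vary like the other strain. Over these 4 fits POB3 ran from -0.087 to 0.026, YMR075C-A from -1.023 to 0.162, RLF2 from -0.159 to 0.048, BRE1 from -0.111 to 0.045 and CWC25 from -0.082 to 0.008, so that their signs turned, and 0 of the 5 were called where they turned. Fewer libraries leave 1 residual degree of freedom.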
